A study of Homo sapiens with 6 samples.

Results

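The 10 genes described here are the 4 TEAD transcription factor genes (TEAD1, TEAD2, TEAD3 and TEAD4), the genes of their coactivators YAP (YAP1) and TAZ (WWTR1), and 4 genes that these complexes are known to activate (CCN1, CCN2, ANKRD1 and AMOTL2). They were chosen by symbol, with earlier results of these data known, and are 10 of the 58051 gene identifiers in the count table. Each symbol matched 1 row, and all 10 passed the filter on low counts. PolyA RNA was sequenced from U2OS, a human osteosarcoma cell line, in 6 libraries. In 3 libraries (siSCR) the cells had received a scrambled control siRNA, and in the other 3 (siSurf2) an siRNA against SURF2, whose product the series title places in the nucleolar stress response. In both groups the cells grew in DMEM with 10% fetal bovine serum, were transfected in 2 rounds 49 h apart and were harvested at 96 h. The comparison asked how mRNA levels differed when SURF2 was lowered. A transient knockdown in 1 line limits the model, the labels do not say how many siRNAs were used, and nothing says that replicates were separate cultures. The p-values therefore reflect only how far these libraries differ from each other, and that spread may be technical.

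SURF2 itself was at 36.2, 35.8 and 32.3 TMM-normalised CPM (counts scaled to a common library size) in siSCR replicates 1, 2 and 3 and at 3.74, 3.56 and 3.20 CPM in siSurf2 replicates 1, 2 and 3, so the labels held in every library. Counts assigned to genes were 17123333 to 19688089 per library, at which 1 CPM is about 17 to 20 counts. Of 12 osteoblast and mesenchymal markers, COL1A1, SPARC, VIM and RUNX2 were well detected, IBSP and TWIST1 were at 0, and SP7 and COL1A2 did not exceed 3 counts in any library. The summed level of that list was 3155 to 3207 CPM in siSCR and 3498 to 3841 CPM in siSurf2, most of it from VIM and SPARC. Its members moved apart, since ALPL, the alkaline phosphatase of bone, fell (log2 fold change -2.07 ± 0.25, adjusted p = 8.3e-08), SPARC, COL1A1, SPP1 and PRRX1 rose (0.47, 0.43, 1.67 and 1.17), and VIM and RUNX2 did not pass. Of these, ALPL had the lowest level, with means of 3.15 ± 0.13 CPM in siSCR and 0.742 ± 0.148 CPM in siSurf2. Markers of other cell types were low in both groups, with summed levels of 0.214 to 0.476 and 0.413 to 0.450 CPM for 5 blood markers (CD3E and HBB at 0), 6.37 to 8.32 and 3.72 to 4.85 CPM for 5 endothelial markers, 9.23 to 9.25 and 9.81 to 10.8 CPM for 6 epithelial markers and 14.0 to 15.4 and 15.6 to 16.9 CPM for 8 heart muscle markers. The 15 mitochondrially encoded genes held 2.89% to 3.49% of the counts in siSCR, up to 4.72% in siSurf2 replicates 1 and 3, and 2.71% in siSurf2 replicate 2, which stood apart from them. The part of these marker levels in the results was not tested. Without that library the same 10 calls were made for the 10 genes, and their log2 fold changes ranged from -1.24 (CCN1) to 1.32 (TEAD2).

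TEAD proteins bind DNA but activate little by themselves. They recruit YAP or TAZ, which carry no DNA-binding domain of their own and which the kinases of the Hippo pathway hold in the cytoplasm by phosphorylation. In spread, adherent cells on a stiff surface, such as cultured osteosarcoma cells, YAP and TAZ are largely nuclear, and the secreted matrix proteins CCN1 and CCN2, the ankyrin repeat protein ANKRD1 and the angiomotin-like scaffold AMOTL2 are standard readouts of the complex.

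The core of the DNA element bound by TEAD factors, the M-CAT motif, reads CATTCC, or GGAATG on the other strand. The promoter sequences below are shown because they hold this motif in genes whose mRNA fell, and the capitals mark each match. They are the 250 bases before a transcription start, 5′ to 3′ on the strand of the gene, from RefSeq (GRCh38.p14). RefSeq entries were matched for 7 of the 10 genes, with 10 starts in all, since AMOTL2, WWTR1 and TEAD2 have more than 1 start each. TEAD1, TEAD4 and CCN1, whose mRNA also fell, had no matched entry here, so their promoters were not searched.
CCN2, chr6:131951373-131951622, minus strand: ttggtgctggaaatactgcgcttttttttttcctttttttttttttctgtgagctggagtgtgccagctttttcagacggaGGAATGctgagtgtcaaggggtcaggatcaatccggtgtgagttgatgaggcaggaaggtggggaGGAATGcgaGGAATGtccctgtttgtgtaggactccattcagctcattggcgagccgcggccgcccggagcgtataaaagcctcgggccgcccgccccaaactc
ANKRD1, chr10:90921088-90921337, minus strand: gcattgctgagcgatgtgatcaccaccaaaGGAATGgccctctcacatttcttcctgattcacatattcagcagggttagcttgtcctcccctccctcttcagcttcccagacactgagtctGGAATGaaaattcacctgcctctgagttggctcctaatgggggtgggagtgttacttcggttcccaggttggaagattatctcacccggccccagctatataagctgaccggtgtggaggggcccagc
AMOTL2, chr3:134374448-134374697, minus strand: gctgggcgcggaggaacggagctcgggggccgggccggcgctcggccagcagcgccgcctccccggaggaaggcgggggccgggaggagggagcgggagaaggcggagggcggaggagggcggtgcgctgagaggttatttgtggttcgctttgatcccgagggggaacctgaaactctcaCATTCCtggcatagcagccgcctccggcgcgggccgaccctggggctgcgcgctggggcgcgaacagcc
YAP1, chr11:102110197-102110446, plus strand: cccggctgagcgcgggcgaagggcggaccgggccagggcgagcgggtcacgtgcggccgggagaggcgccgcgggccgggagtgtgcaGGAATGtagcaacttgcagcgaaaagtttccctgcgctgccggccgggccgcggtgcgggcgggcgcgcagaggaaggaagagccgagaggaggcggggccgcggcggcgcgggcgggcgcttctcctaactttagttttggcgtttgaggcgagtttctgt
The CCN2 promoter held 3 matches, beginning 169, 104 and 95 bases before the start, the last pair separated by 3 bases. ANKRD1 held 2, beginning 220 and 128 bases before the start. AMOTL2 held 1 at 69 bases and YAP1 held 1 at 162 bases, and the other 6 starts (the other start of AMOTL2, both of WWTR1 and TEAD2, and TEAD3) had none in this window. Of all 35116 promoters of the same length, 11.9% held at least 1 match, 0.940% at least 2 and 0.0826% at least 3. Both strands were searched, and a match says only that these letters are present. CCN2, ANKRD1 and AMOTL2 were picked as known targets of these factors, so their matches are no separate evidence on TEAD activity.

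With siSurf2, mRNAs of the major TEAD factors, of YAP1 and of all 4 targets fell, while TEAD2 rose. Over all 17561 genes tested, 52% passed the threshold (adjusted p below 0.05 in the quasi-likelihood test of edgeR), 25.8% being higher and 26.2% lower in siSurf2. Of the 10 genes, 7 fell, 1 rose and 2 (TEAD3 and WWTR1) did not pass, and the median log2 fold change was -0.62, against 0.0042 over all genes tested. The CPM values of the groups did not overlap for 8 of the 10 genes, as for 57.3% of all genes tested. These are levels in bulk RNA, in which fewer cells of a kind and less RNA per cell cannot be told apart.

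**Figure D1:**
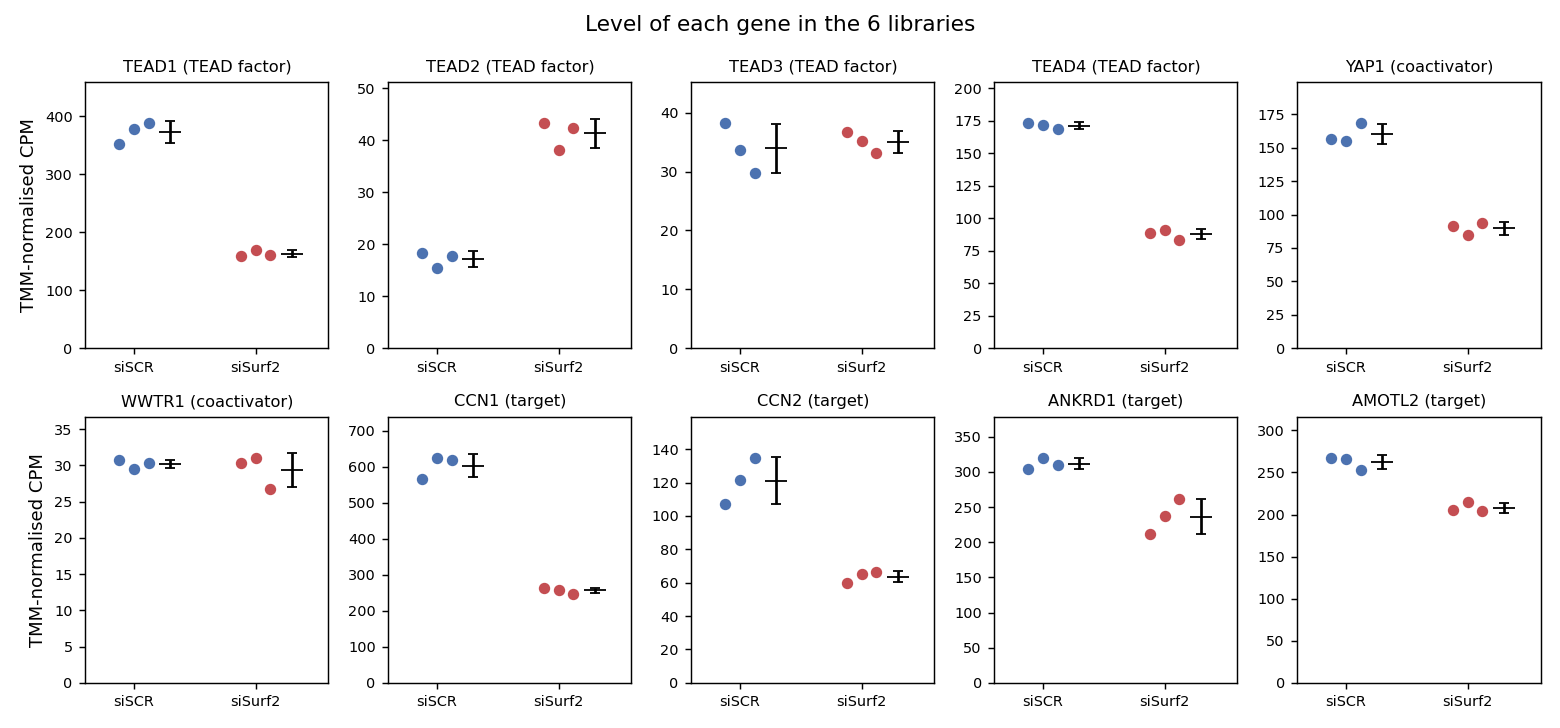
TMM-normalised CPM of each gene (vertical axes start at 0) in the 3 siSCR (blue) and 3 siSurf2 (red) libraries, with the mean and SD (n = 3) in black. The groups overlap in TEAD3 and WWTR1, TEAD2 is higher in the siSurf2 libraries, and the other 7 genes are lower in them.

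TEAD1, the founding member of the family, fell most among the factors. It was at 353, 377 and 388 CPM in siSCR replicates 1, 2 and 3 and at 158.9, 169 and 159.8 CPM in siSurf2 replicates 1, 2 and 3. Every siSurf2 library was below every siSCR library, by 2.29-fold on average (372.8 ± 18.3 against 162.7 ± 5.81 CPM, SD, n = 3 each; log2 fold change -1.20 ± 0.05, SE, adjusted p = 3.7e-17). Its gene (ENSG00000187079) lies on chromosome 11 at 12674591 to 12944483 (GRCh38, GENCODE release 29). Of all genes tested, it had the 473rd lowest log2 fold change.

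TEAD4, a factor best known from the trophectoderm and from muscle, fell as well. It was at 173, 172 and 168.5 CPM in siSCR and at 88.7, 90.8 and 83.5 CPM in siSurf2, in the order of the replicates. The replicates lay close together and the groups were far apart (171.3 ± 2.55 against 87.6 ± 3.76 CPM, a 1.95-fold lower level; log2 fold change -0.97 ± 0.05, adjusted p = 4.8e-15). The gene (ENSG00000197905) is on chromosome 12 at 2959330 to 3040673.

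TEAD2, a family member prominent in early embryos, moved the other way. It was at 18.4, 15.5 and 17.8 CPM in siSCR and at 43.3, 38.1 and 42.4 CPM in siSurf2. All siSurf2 libraries were above all siSCR libraries, 2.40-fold on average (17.2 ± 1.54 against 41.3 ± 2.76 CPM; log2 fold change 1.26 ± 0.08, adjusted p = 1.2e-13). TEAD2 (ENSG00000074219, chromosome 19, 49340595 to 49362457) shares 319 of its 2980 exon bases with CD37 on the opposite strand, and whether the counting used strand is not known from the labels. CD37 also rose, with means of 5.52 ± 0.558 in siSCR and 9.48 ± 1.598 CPM in siSurf2 (log2 fold change 0.78 ± 0.14, adjusted p = 2.7e-05), and its part in the TEAD2 counts was not tested.

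TEAD3, known from placenta, showed no difference beyond its spread. It was at 38.3, 33.7 and 29.8 CPM in siSCR and at 36.8, 35.3 and 33.1 CPM in siSurf2, so that the groups overlapped. The log2 fold change was 0.05 ± 0.08 (95% interval -0.11 to 0.21, adjusted p = 0.63), an interval that leaves room for small changes in either direction. The TEAD genes are paralogs with similar coding exons, and no label says how reads that match several of them were counted.

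The 4 factors can be set beside each other per length, as CPM per kilobase of merged exons. In siSCR the order was TEAD4 (75.4 ± 1.12), TEAD1 (36.3 ± 1.78), TEAD3 (11.1 ± 1.39) and TEAD2 (5.77 ± 0.518), and no neighbours in this order overlapped. In siSurf2 TEAD4 (38.6 ± 1.66) and TEAD1 (15.8 ± 0.566) still led, but TEAD2 (13.9 ± 0.926) now stood above TEAD3 (11.5 ± 0.612), again without overlap. The summed TEAD level per length was 129.4, 128.7 and 127.7 in the siSCR libraries and 81.1, 80.8 and 77.4 in the siSurf2 libraries, in replicate order, which is 1.61-fold lower on average. The gain in TEAD2 level (8.08 per kilobase) was smaller than the drop in TEAD4 (-36.8) or TEAD1 (-20.4).

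The make-up of the family differed between the groups. TEAD2 made up 4.77%, 4.03% and 4.67% of the summed TEAD level in siSCR and 17.9%, 15.8% and 18.4% in siSurf2. TEAD4 went from 58.7% ± 0.501 to 48.4% ± 0.996 and TEAD1 from 28.2% ± 1.56 to 19.9% ± 0.704, while TEAD3, whose own level did not pass the test, went from 8.66% ± 1.02 to 14.4% ± 0.433 of the smaller sum. None of these shares overlapped between the groups. Each share and the sum had an exact two-sided permutation p of 0.10 (adjusted p = 0.10 over 7 sums and shares), which is the smallest that 3 against 3 libraries can give, so that none could pass 0.05.

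**Figure D2:**
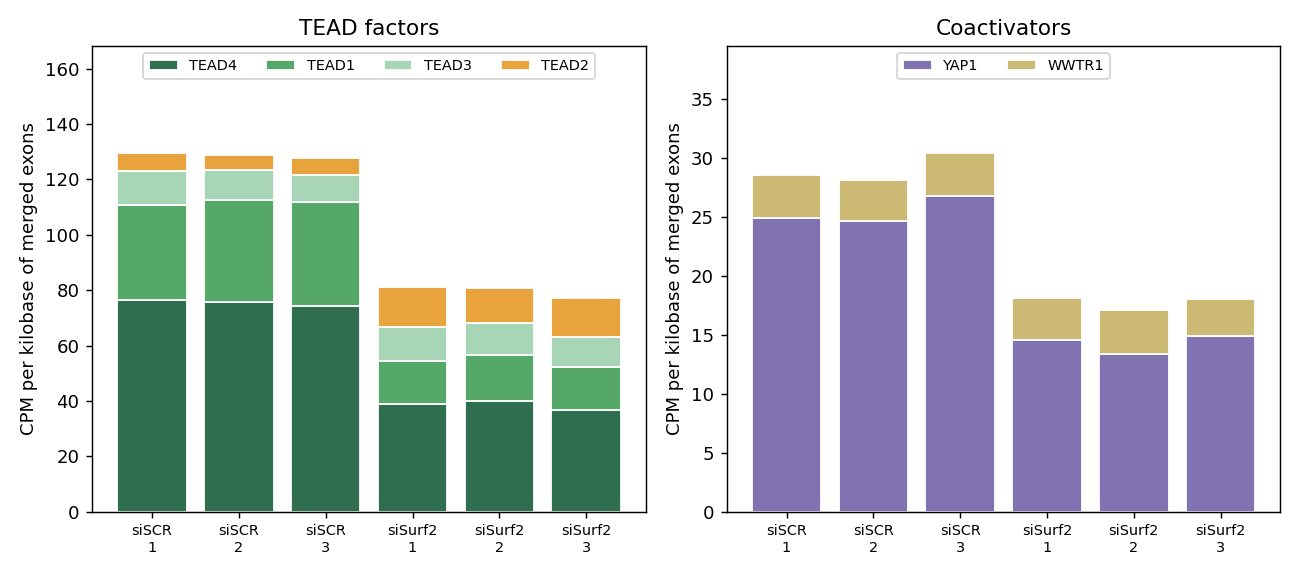
Stacked levels per length (CPM per kilobase of merged exons, axes from 0) of the TEAD factors on the left and of YAP1 and WWTR1 on the right, 1 bar per library. The summed TEAD level lies between 127.7 and 129.4 in siSCR and between 77.4 and 81.1 in siSurf2, where the TEAD2 segment is thicker and the TEAD1 and TEAD4 segments are thinner.

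Paralogs were also compared as ratios within each library. The log2 ratio of TEAD1 to TEAD2 (per length) was 2.47, 2.82 and 2.66 in siSCR and 0.09, 0.36 and 0.13 in siSurf2, a mean difference of -2.46. TEAD1 to TEAD3 differed by -1.25 between the groups. TEAD1 to TEAD4 differed by -0.23, with -1.15, -1.05 and -0.97 in siSCR and -1.34, -1.28 and -1.24 in siSurf2, so TEAD1 was lower by more than TEAD4 in these libraries. Of the 5 paralog pairs compared, counting those of YAP1 and CCN1 given further on, none overlapped between the groups, and each had the smallest exact permutation p possible (0.10, two-sided, adjusted p = 0.10 over the 5 pairs).

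Of the coactivators, YAP1 fell and WWTR1 did not pass the test. YAP1 was at 157, 155 and 169 CPM in siSCR and at 91.5, 84.5 and 93.8 CPM in siSurf2, with no overlap. The mean was 1.78-fold lower in siSurf2 (160.2 ± 7.39 against 89.9 ± 4.86 CPM; log2 fold change -0.83 ± 0.05, adjusted p = 3.3e-13). The gene (ENSG00000137693) is on chromosome 11 at 102110461 to 102233423, and its 3 annotated processed pseudogenes had at most 1 count in any library.

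WWTR1, which encodes TAZ, was at 30.7, 29.5 and 30.3 CPM in siSCR and at 30.4, 31.1 and 26.7 CPM in siSurf2. The groups overlapped, and the lowest value, in siSurf2 replicate 3, set the spread of that group. The log2 fold change was -0.04 ± 0.07 (95% interval -0.19 to 0.11, adjusted p = 0.68). The antisense gene WWTR1-AS1 shares 795 exon bases with WWTR1 (ENSG00000018408, chromosome 3, 149517235 to 149736714), but had only 18 to 28 counts in a library.

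Per length, YAP1 was the main coactivator mRNA in both groups. It made up 87.2%, 87.5% and 88.1% of the sum of YAP1 and WWTR1 in siSCR and 80.1%, 78.4% and 82.4% in siSurf2, without overlap. The sum was 29.03 ± 1.20 in siSCR and 17.8 ± 0.576 in siSurf2 (CPM per kilobase), 1.63-fold lower. The log2 ratio of YAP1 to WWTR1 was lower in siSurf2 by 0.79 on average, with 2.77, 2.81 and 2.89 in siSCR and 2.01, 1.86 and 2.23 in siSurf2. The log2 ratio of the summed TEAD level to this sum was 2.15 ± 0.07 in siSCR and 2.17 ± 0.07 in siSurf2, and the values overlapped (exact permutation p = 0.80, two-sided).

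CCN1, a matricellular protein also known as CYR61, fell most among the targets. It was at 566, 625 and 618 CPM in siSCR and at 263, 259 and 248 CPM in siSurf2. The groups were far apart relative to their spread, with a 2.35-fold lower level in siSurf2 (602.9 ± 32.5 against 256.7 ± 7.79 CPM; log2 fold change -1.23 ± 0.05, adjusted p = 2.1e-17). The gene (ENSG00000142871) lies on chromosome 1 at 85580761 to 85583962. Its log2 fold change was the 443rd lowest of all genes tested, close in rank to TEAD1.

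CCN2, the related matricellular protein CTGF, fell too. It was at 107, 121 and 135 CPM in siSCR and at 59.7, 64.9 and 66.3 CPM in siSurf2. The siSCR values were widely spread but lay above all siSurf2 values (121.2 ± 13.9 against 63.7 ± 3.46 CPM, 1.90-fold lower; log2 fold change -0.93 ± 0.07, adjusted p = 9.2e-11). The log2 ratio of CCN1 to CCN2 per length was 2.33, 2.30 and 2.12 in siSCR and 2.07, 1.92 and 1.83 in siSurf2, a mean difference of -0.31. The gene (ENSG00000118523, chromosome 6, 131948176 to 131951373) is the one whose promoter above held 3 matches to the motif.

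ANKRD1, a stretch-responsive ankyrin repeat protein of heart muscle that is also a nuclear cofactor, fell less. It was at 305, 320.3 and 310.4 CPM in siSCR and at 212, 237 and 261 CPM in siSurf2. The siSurf2 libraries were spread more widely than the siSCR libraries and were all below them (311.8 ± 7.91 against 236.5 ± 24.6 CPM, 1.32-fold lower; log2 fold change -0.40 ± 0.06, adjusted p = 2.6e-06). The gene (ENSG00000148677) is on chromosome 10 at 90912096 to 90921276.

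AMOTL2, a scaffold at cell junctions that itself binds and restrains YAP, was at 268, 266 and 253 CPM in siSCR and at 205, 214 and 204 CPM in siSurf2. All siSurf2 libraries were lower, by 1.26-fold on average (262.1 ± 8.14 against 207.8 ± 5.84 CPM; log2 fold change -0.33 ± 0.05, adjusted p = 1.2e-06). The gene (ENSG00000114019) is on chromosome 3 at 134355874 to 134375479. When the libraries were scaled to their spike-in totals instead, AMOTL2 and ANKRD1 no longer passed (log2 fold changes -0.37 and -0.43, adjusted p = 0.47 and 0.37). Over the 17 other settings tried, the adjusted p ranged from 1.3e-10 to 0.47 for AMOTL2 and from 4.8e-12 to 0.37 for ANKRD1.

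**Figure D3:**
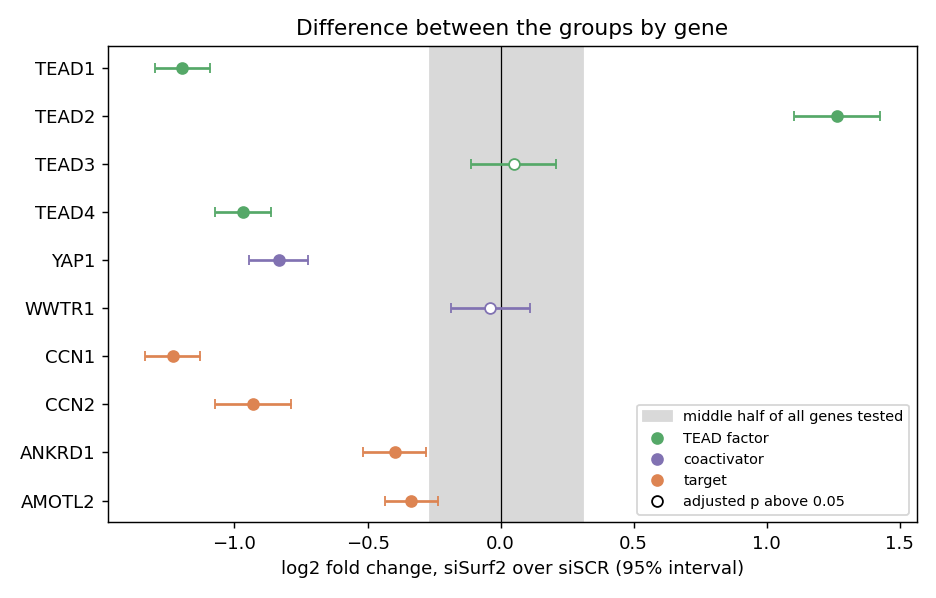
Log2 fold change of siSurf2 over siSCR for each gene with its 95% interval, coloured by role (open symbols: adjusted p above 0.05), on a grey band from the lower to the upper quartile of all genes tested (-0.27 to 0.31). TEAD1 and CCN1 lie lowest at -1.20 and -1.23, TEAD2 lies highest at 1.26, and ANKRD1 and AMOTL2 lie just below the band.

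The targets thus differed in size of response, and their levels were set against the summed TEAD level of the same library. The log2 ratio of CCN1 to the TEAD sum (per length) was 0.83, 0.98 and 0.98 in siSCR and 0.40, 0.38 and 0.39 in siSurf2. CCN1 was thus lower by more than that sum, which includes the rise of TEAD2. Its own log2 fold change was close to that of TEAD1 (-1.23 ± 0.05 and -1.20 ± 0.05). The log2 ratio of AMOTL2 to the TEAD sum was -1.53, -1.53 and -1.60 in siSCR and -1.24, -1.17 and -1.19 in siSurf2. AMOTL2 was thus lower by less than the sum, as was ANKRD1 (mean difference in log2 ratio 0.29). Each of these 3 had the smallest exact permutation p (0.10, two-sided; adjusted p = 0.17 over 5 ratios). For CCN2 the ratios overlapped (mean difference -0.23, exact permutation p = 0.20, adjusted p = 0.25), and the mean difference was -0.15 without siSCR replicate 3. For ANKRD1 it was 0.19 without siSurf2 replicate 3.

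Per length, the order of the 10 mRNAs in siSCR was CCN1 (245.6 ± 13.2), ANKRD1 (157.5 ± 3.997), TEAD4, CCN2 (51.8 ± 5.93), AMOTL2 (43.8 ± 1.36), TEAD1, YAP1 (25.4 ± 1.17), TEAD3, TEAD2 and WWTR1 (3.59 ± 0.072), in CPM per kilobase, with no overlap between neighbours. In siSurf2 ANKRD1 (119.5 ± 12.4) and CCN1 (104.6 ± 3.18) overlapped at the top, and YAP1 (14.3 ± 0.772) overlapped TEAD2. AMOTL2 (34.7 ± 0.976) was there above CCN2 (27.2 ± 1.48). The siSCR order of CCN2 and AMOTL2 depends on the length used. AMOTL2 has 5984 merged exon bases but 4521 in its longest transcript, while CCN2 has 2339 by either measure. Per base of the longest transcript, AMOTL2 would have the higher mean in siSCR too, with overlapping values.

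The genes whose profile over the 6 libraries lay nearest to TEAD1, among 13221 compared, were MAK16, SWAP70 and CCN1, with Euclidean distances of 0.067, 0.086 and 0.116 in log2 CPM relative to the siSCR mean. MAK16 and SWAP70 had log2 fold changes of -1.22 ± 0.06 and -1.21 ± 0.05. For CCN1 the nearest were HMGCS1 (0.115, log2 fold change -1.20 ± 0.05), TEAD1 (0.116) and MAK16 (0.120). TEAD1 and CCN1 thus each appeared among the 3 nearest genes of the other, in a measure that the difference between the groups dominates.

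Other genes of the YAP and TAZ target signature went both ways. Of 18 listed, 16 were tested, of which 10 fell, 5 rose and 1 did not pass, with a median log2 fold change of -0.23. Over all genes tested 26.2% fell and 25.8% rose, with a median of 0.0042, and the list was not tested as a set. PTPN14, a phosphatase that binds YAP, fell, with means of 178.4 ± 7.88 in siSCR and 77.8 ± 1.67 CPM in siSurf2 (log2 fold change -1.20 ± 0.05, adjusted p = 6.7e-17). CRIM1, a cell-surface regulator of BMP signals, fell by 0.81 ± 0.05 and CCDC80, a matrix protein, by 0.93 ± 0.06 on the log2 scale. MYOF, a membrane repair protein, rose from 419.6 ± 25.6 to 641.1 ± 16.3 CPM (0.61 ± 0.05), RBMS3, an RNA-binding protein, rose by 1.13 ± 0.11 and ASAP1, a GTPase-activating protein of the cell cortex, by 0.31 ± 0.05. IGFBP3 had no count in any library and NT5E at most 1. With spike-in scaling 4 of the list were called lower and 1 higher, the calls lost including MYOF (log2 fold change 0.56, adjusted p = 0.19) and ASAP1 (0.26, adjusted p = 0.67).

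Genes that restrain YAP and TAZ went both ways as well. Of 21 Hippo kinases, adaptors and other inhibitors, 12 fell, 6 rose and 3 did not pass, with a median of -0.21. The shares over all genes tested were 26.2% lower and 25.8% higher, and this list was not tested as a set either. NF2, the merlin scaffold that brings the kinases to the membrane, fell, with means of 165.1 ± 11.9 in siSCR and 83.7 ± 2.87 CPM in siSurf2 (log2 fold change -0.98 ± 0.06, adjusted p = 2.3e-14), and its partner WWC1, or KIBRA, fell by 0.95 ± 0.06. PTPN14, named above, and LATS2, which also fell, are counted both in this list and among the other targets. AMOT and AMOTL1 are counted both here and among the relatives of the targets given further on. WWC3, a relative of WWC1, rose from 4.79 ± 0.373 to 10.4 ± 0.825 CPM (1.12 ± 0.13), and the upstream kinases TAOK3 and TAOK1 rose by 0.69 ± 0.08 and 0.38 ± 0.05. With spike-in scaling 3 were called lower and 1 higher, and TAOK3 (log2 fold change 0.64, adjusted p = 0.15) and TAOK1 (0.31, adjusted p = 0.58) did not pass.

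The vestigial-like proteins compete with or replace YAP on TEAD factors, and 3 of the 4 genes were tested. VGLL3 fell, with means of 17.4 ± 1.91 in siSCR and 8.96 ± 0.591 CPM in siSurf2 (log2 fold change -0.96 ± 0.10, adjusted p = 9.4e-09). VGLL4, a repressor of TEAD targets, rose from 13.03 ± 0.709 to 18.4 ± 1.70 CPM (0.49 ± 0.09, adjusted p = 6.5e-05), though it did not pass with spike-in scaling (log2 fold change 0.47, adjusted p = 0.38). VGLL2, at 2.29 ± 0.419 and 3.37 ± 0.889 CPM, passed narrowly (0.54 ± 0.22, adjusted p = 0.041) with overlapping groups. Its adjusted p was 0.17, 0.073, 0.15 and 0.16 without siSCR replicate 1, siSCR replicate 3, siSurf2 replicate 1 and siSurf2 replicate 2, 0.089 with DESeq2, 0.074 with limma-voom and 0.52 with spike-in scaling.

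Of 8 close relatives of the targets, 7 were tested, of which 2 rose, 2 fell and 3 did not pass. With 25.8% of all genes tested called higher and 26.2% lower, that count is near the background and shows nothing about the paralogs as a group. Their median log2 fold change of 0.18 rested on single libraries, being 0.0076 without siSurf2 replicate 1 and 0.044 without siSCR replicate 1. CCN3, a family member often opposed to CCN2 in its actions, was at 13.4, 14.0 and 13.9 CPM in siSCR and at 46.8, 51.8 and 53.6 CPM in siSurf2. All siSurf2 libraries were thus far above siSCR, while CCN1 and CCN2 were below it (CCN3 log2 fold change 1.88 ± 0.08, adjusted p = 1.0e-17). ANKRD2, the muscle paralog of ANKRD1, fell from 5.38 ± 0.355 to 0.574 ± 0.050 CPM (-3.22 ± 0.23, adjusted p = 2.9e-12), a level near 10 counts per library. ANKRD2 passed the filter on low counts through its siSCR libraries, so this call is no separate support for a lower level. The angiomotin relatives of AMOTL2 divided, AMOT falling by 0.64 ± 0.07 and AMOTL1 rising by 0.18 ± 0.05, and neither passed with spike-in scaling (log2 fold changes -0.70 and 0.13, adjusted p = 0.079 and 0.87).

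Serum response factor and its MRTF cofactors share targets such as CCN1, CCN2 and ANKRD1 with YAP and TEAD, so a list of their genes was set beside these. Of 14 tested, 8 fell, 2 rose and 4 did not pass, with a median of -0.28. Among all genes tested 26.2% were lower and 25.8% higher, and no test of the list as a set was run. TAGLN, a smooth muscle actin-binding protein, fell from 19.2 ± 0.984 to 3.67 ± 0.679 CPM (-2.39 ± 0.12), TPM1, a tropomyosin, by 1.22 ± 0.06 and MYL9, a myosin light chain, by 0.77 ± 0.05. ACTA2, smooth muscle actin, rose from 4.89 ± 0.461 to 15.3 ± 0.990 CPM (1.65 ± 0.12), and the cofactor gene MRTFA rose by 0.17 ± 0.06. MRTFA had an adjusted p of 0.012, which was 0.053 without siSCR replicate 2 and 0.87 with spike-in scaling, under which 4 of the list were called lower and 1 higher.

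**Figure D4:**
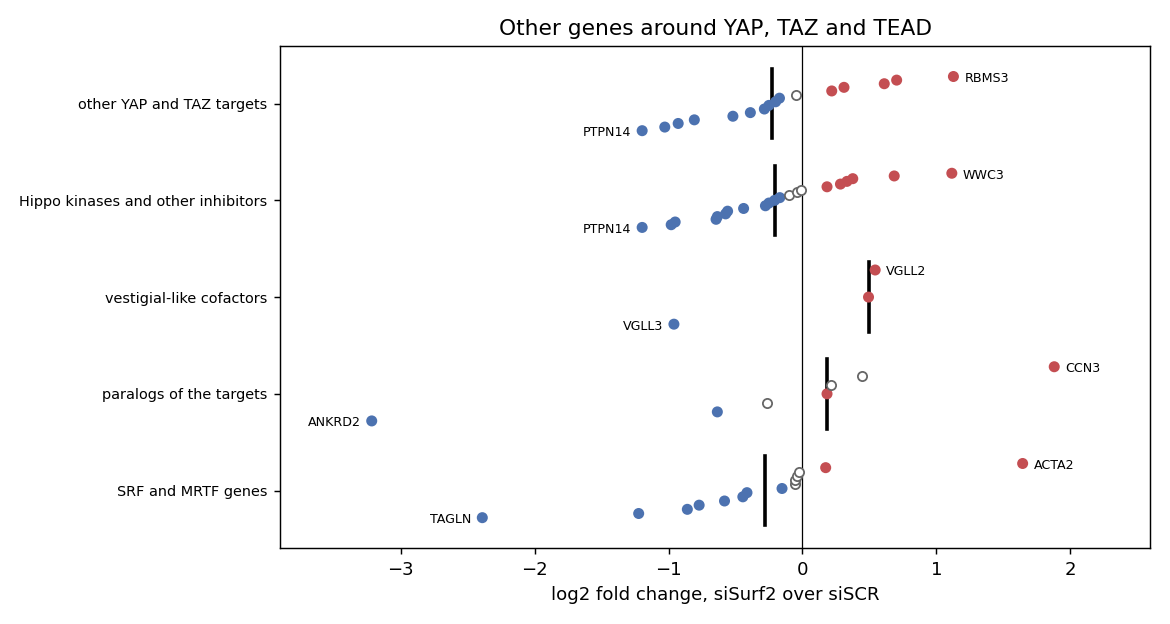
Log2 fold change (siSurf2 over siSCR) of every tested gene of the 5 lists around YAP, TAZ and TEAD, filled where the adjusted p was under 0.05 (blue lower, red higher) and open where not, with a black bar at each list's median and the lowest and highest gene named. The medians lie at -0.23 for other targets, -0.21 for Hippo kinases and other inhibitors, 0.49 for vestigial-like cofactors, 0.18 for paralogs of the targets (0.0076 without siSurf2 replicate 1) and -0.28 for SRF and MRTF genes, and each list has members on both sides of 0.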

How the data were processed

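The deposited table holds raw read counts for Ensembl genes, which the authors had not normalised. The submitters' processing notes list GRCh38, STAR 2.5.2b and fastp 0.23.1. How reads were counted, with which annotation and whether by strand, was not stated in any source used here. Per the labels' protocols, libraries were made from 2 µg of total RNA.

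The 92 ERCC spike-in rows (1.12% to 1.72% of counts) were left out of the library sizes and of every test. Symbols were taken from a name table, then GENCODE, and coordinates and exon lengths from GENCODE release 29. Low counts were removed in edgeR 4.0.16 by filterByExpr (minimum count 10, minimum total 15). The minimum count is taken as a CPM at the median library size, to be reached in as many libraries as the smaller group holds. Genes were then normalised with TMM and tested with the quasi-likelihood F-test (robust, 1 term for the group) in R 4.3.3. The p-values were adjusted by Benjamini-Hochberg over 17561 genes. SE is the absolute unshrunk log2 fold change over the square root of F. Single values per library were tested with exact permutation tests. The programs were tested on simulated data.

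The 10 genes, the lists, the motif and the rule for named genes (all members, up to 3 per list and direction by adjusted p, and the 3 nearest profiles of TEAD1 and CCN1) were chosen with earlier results of these data known. Alternatives were RLE, upper-quartile and no factors, spike-in scaling, no filter and a filter of 1 CPM, DESeq2 1.42.0, limma-voom (limma 3.58.1), a non-robust prior, a replicate block and leaving out libraries, and for levels per length the longest transcript.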

Additional observations from a re-analysis of the deposited data

How the results depend on the processing

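All 10 genes kept their calls in 16 of 17 other settings, among them RLE, upper-quartile and no factors, both filters, DESeq2, limma-voom and each left-out library. With spike-in scaling, whose totals varied between replicates, ANKRD1 (-0.43) and AMOTL2 (-0.37) lost their calls, the genes called over the whole table went from 4535 higher and 4596 lower to 802 and 825, and the log2 fold change of the TEAD sum moved from -0.69 to -0.73. WWTR1 and TEAD3, never called, changed sign: WWTR1 was at 0.0061 with upper-quartile factors and 0.030 without both libraries numbered 3. On leaving out 1 library, WWTR1 ranged from -0.083 (without siSurf2 replicate 2) to 0.028 (without siSurf2 replicate 3) and TEAD3 from -0.046 (without siSCR replicate 3) to 0.13. Same-numbered libraries did not deviate together (correlations of deviations 0.0035, -0.092 and -0.039, and siSCR replicate 2 correlated best with siSurf2 replicate 3, at 0.118). With the replicate block 4478 genes were higher and 4550 lower, and no call among the 10 changed. At these depths genes under about 1 CPM rest on fewer than 20 counts a library.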

Other observations

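TEAD factors were first known for binding M-CAT elements of muscle genes, and 5 such genes were looked up beside the 10 described above. TNNT2, cardiac troponin T, was at 62.1, 65.1 and 64.8 CPM in siSCR replicates 1, 2 and 3 and at 0.825, 1.19 and 0.800 CPM in siSurf2 replicates 1, 2 and 3. The groups were far apart (log2 fold change -6.08 ± 0.12, SE, edgeR adjusted p = 8.2e-25). MYH6, MYH7, ACTA1 and ACTC1 did not pass the filter on low counts, with at most 15 counts in a library. ACTC1, cardiac actin, had 15, 12 and 10 counts in siSCR and 4, 3 and 2 in siSurf2, and passed the filter without siSCR replicate 3 and without siSurf2 replicate 1, 2 or 3. In these 4 fits it was called lower, with log2 fold changes of -2.34 to -1.82 and edgeR adjusted p of 0.0022 to 0.013. Only its siSCR counts could carry ACTC1 past that filter, so these calls are no separate support for a lower level. Without any filter ACTC1 was called lower too (-2.05, edgeR adjusted p = 0.0028), and MYH6, MYH7 and ACTA1 were not. TNNT2 was put on this list with its difference already known, so it is no separate evidence on TEAD activity. Of 8 heart muscle markers, 4 were tested. NPPB, natriuretic peptide B, fell from 1.31, 0.963 and 1.95 CPM to 0.055, 0.052 and 0 CPM. It passed the filter through its siSCR libraries and had almost no counts in siSurf2. NKX2-5, a cardiac transcription factor, rose by 0.33 ± 0.10 on the log2 scale (edgeR adjusted p = 0.0093). NPPA and ACTN2 did not pass (log2 fold changes 0.15 and 0.18, edgeR adjusted p = 0.82 and 0.67).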
